A study of Homo sapiens with 8 samples.

Results

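Translation initiation factors (gene symbols starting EIF) and elongation factors (symbols starting EEF) were followed through ribosome profiling libraries of 293T cells. The members were taken by symbol, leaving out the EIF2AK kinases, EIF4ENIF1, EIF4E2, EIF1AY and pseudogenes, which gave 60 of the 17179 gene symbols in the files. Of these, 59 passed the filter on low counts. EIF4E1B, which had between 0 and 2 counts in a library, did not. EIF2B5, EIF3F, EIF4A3, EIF4G3, EEF1G and EEF1AKMT4, which belong to the same complexes and families, were not analysed here. A pair of symbols name readthrough transcripts (EEF1E1-BLOC1S5 and EEF1AKMT4-ECE2) and were kept apart from the functional groups.

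293T is a human embryonic kidney line that expresses the SV40 large T antigen. Cells carrying shNBD1, a non-cleaving short hairpin RNA, gave 2 libraries, and cells with the control for shRNA (titled Scr) gave 2. Cells given miRNA inhibitors gave 2 libraries, and cells with their own control (titled NC) gave 2. All lysates contained cycloheximide, which freezes ribosomes on mRNA. The labels name neither the miRNAs inhibited nor the promoter of the hairpin, and do not say whether replicates were separate cultures. The spread behind each p-value is that between these libraries, and it may be technical. The study asked how translation stood under each treatment. Reads protected by ribosomes were counted per gene. In such bulk counts, fewer cells with a message, less message per cell and fewer ribosomes per message cannot be told apart.

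Initiation starts when eIF2, bound to GTP and the initiator tRNA, joins the small ribosomal subunit together with eIF1, eIF1A, eIF5 and eIF3. The cap-binding complex eIF4F brings this assembly to the mRNA, which is scanned to the start codon, and eIF5B then helps the large subunit to join. eIF2B recharges eIF2, and stress kinases that phosphorylate eIF2 block that exchange. During elongation eEF1A carries aminoacyl-tRNA to the ribosome, eEF1B recharges eEF1A, and eEF2 moves the ribosome on by a codon. Many mRNAs of this machinery start with a cytosine followed by a run of pyrimidines, the terminal oligopyrimidine (TOP) motif, through which mTOR and LARP1 control their translation.

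Because of that motif, the first 20 bases from the annotated transcript start were read for each factor with a window in the RefSeq promoter table (GRCh38.p14). A start was counted as pyrimidine-rich where base 1 was C and belonged to an unbroken run of at least 5 pyrimidines. Among 46 factors with a window 12 had such a start (26.1%), against 1404 of 27305 genes in the table (5.14%). Where a gene had several annotated starts the one with the longest run was kept, for factors and all genes alike. The sequences below are those of the factors that the results turn on, 5′ to 3′ on the strand of the gene, with the pyrimidine run in capitals.
EEF1A1: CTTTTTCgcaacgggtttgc
EEF2: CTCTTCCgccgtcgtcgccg
EIF3M: CTTTTCCggtcggcgtggtc
EIF4A2: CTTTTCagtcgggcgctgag
EIF2S3: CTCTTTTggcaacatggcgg
EIF2S3B: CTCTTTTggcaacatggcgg
EIF1: gccccagtcactgagccgcc
EIF5: agtcagagcgagaacattcc
EIF5B: acaccatatgtgtcctgttc
EIF3J: aactcctcgctagctctccc
EIF3C: gtggcaggcagccctgcacc
EIF4H: ctggttcctctcggagcgga
The first 6 of these begin with a run of 6 or 7 pyrimidines, and the other 6 do not meet the rule. EIF2S3 on chromosome X and its copy EIF2S3B on chromosome 12 have the same 20 bases. No window of EEF1A2 was used here. An annotated start is not a measured one, and a window without the run says only that these letters are not in it.

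Library totals lay between 11218980 and 19854218 counts, of which the factors held 2.47% to 2.92%. Within the factors, EEF1A1, EEF2 and EIF4A1 held 53.9% to 58.2% of the counts. Values below are in CPM, the usual unit of counts relative to the library total, here with totals scaled by edgeR's TMM method. No table of gene lengths was used, so levels of different genes are not set against each other. Summed over the factors, the levels were 28442 and 28144 CPM with shNBD1, against 28370 and 28021 CPM in the shRNA control, and 26808 and 30970 CPM with the inhibitors, against 24033 and 26832 CPM in the inhibitor control. Replicates of the inhibitor arm lay further apart. Over the tested factors the median distance between replicates was 0.07 on the log2 scale with shNBD1, 0.04 in the shRNA control, 0.13 with the inhibitors and 0.13 in the inhibitor control. Of 8 markers of other cell types, PTPRC, ALB and MYH6, of blood, liver and heart, had between 0 and 2 counts in each library, while PECAM1 had 10 to 32, GFAP 9 to 25, CD68 133 to 572, COL1A1 468 to 849 and ACTA2 3915 to 10408. Summed and divided by the unscaled library total, the 8 came to 426 and 435 CPM with shNBD1, against 376 and 405 CPM in the shRNA control, and to 467 and 473 CPM with the inhibitors, against 585 and 555 CPM in the inhibitor control, most of it from ACTA2, a smooth muscle actin. On that scale CD68, a macrophage marker, had 26.8 and 26.4 CPM with shNBD1, against 38.6 and 39.0 CPM in the shRNA control, and 10.8 and 11.9 CPM with the inhibitors, against 11.97 and 14.9 CPM in the inhibitor control. The part of these differences in the results was not tested.

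With shNBD1, footprints on EIF1 and EIF5B, factors of scanning and subunit joining, and on EIF3J, EIF3M, EIF4H and EIF2S3B were lower than in the shRNA control, while those on EEF1A2, EIF4A2 and the EIF3C copies were higher. By edgeR's quasi-likelihood test, with p-values adjusted over 13306 genes, 4 of 59 tested factors were higher and 6 were lower (adjusted p under 0.05). That is 16.9% of the tested factors, near the 18.3% of all genes tested that were called (9.18% higher and 9.15% lower). The median log2 fold change of the tested factors was -0.07, beside 0.001 for all genes. Both shNBD1 libraries lay below both controls for 27 of 59 factors (34.3% of all genes) and above both for 14 (34.7% of all genes). With the inhibitors no tested factor was called, where 0.12% of all genes were (0.0376% higher and 0.0827% lower). By the same test 11 factors had an unadjusted p under 0.05, and DESeq2 also called 0. With a replicate block, a term for the replicate number, 4 were called higher, where 5.07% of all genes were called. Leaving out single libraries of that arm changed the number called, among the factors as among all genes. Both inhibitor libraries lay above both controls for 22 of 59 factors (20.5% of all genes) and below both for 4 (20.3% of all genes). There the fold change was positive for 46 of 59 tested factors, and the median was 0.08, beside 0.007 for all genes.

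**Figure D1:**
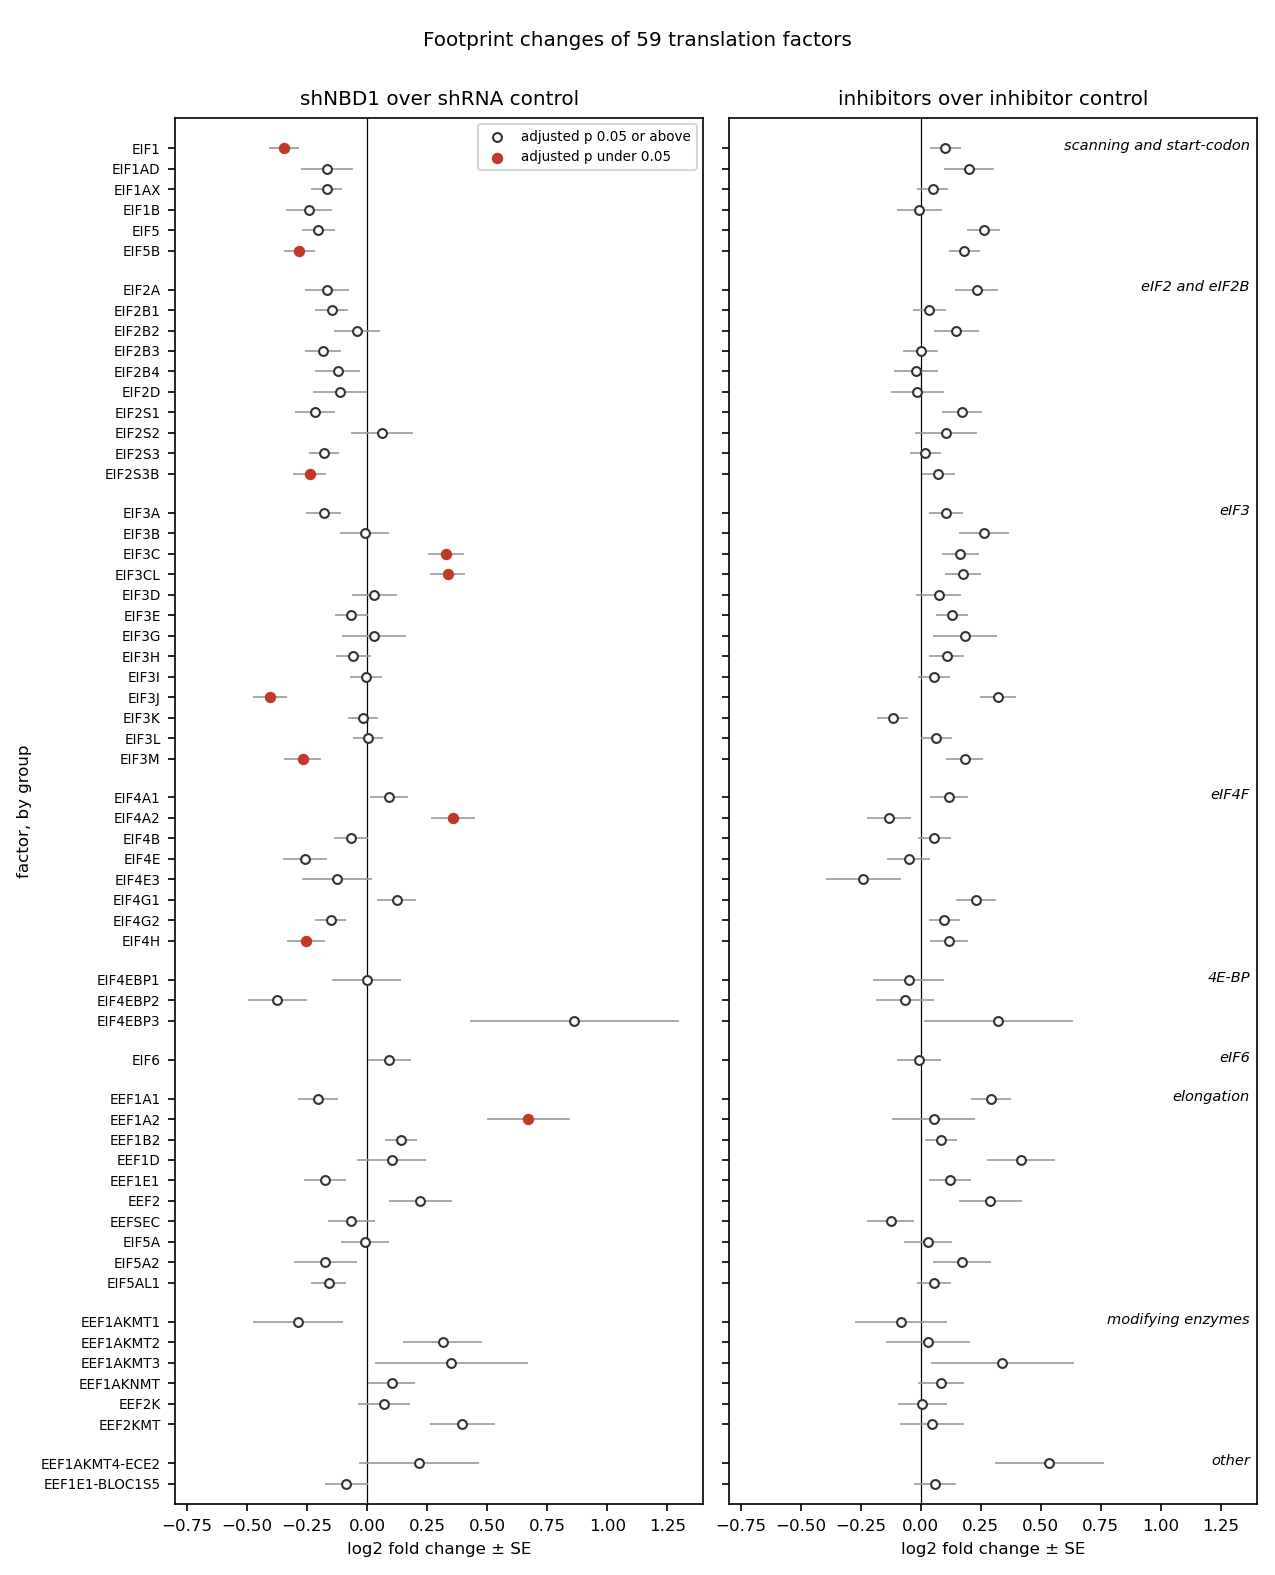
Log2 fold change of ribosome footprints (x axis, points with SE bars) for each of 59 tested factors, grouped by role from top to bottom, for shNBD1 over the shRNA control (left) and the inhibitors over the inhibitor control (right). Filled points passed an adjusted p of 0.05. The 6 scanning and start-codon factors lie left of 0 on the left, and no point is filled on the right.

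The scanning and start-codon factors lay on 1 side under shNBD1. All 6 had a negative log2 fold change, between -0.35 and -0.17, with a median of -0.22. For each of them both shNBD1 libraries lay below both shRNA controls, as for 34.3% of all genes. Of the 6, EIF1 and EIF5B passed the test, or 33.3% beside 18.3% of all genes. EIF1 (ENSG00000173812, chromosome 17, 41688885 to 41692668) keeps the scanning ribosome open and guards against starts at wrong codons. It had 222 and 212 CPM with shNBD1, against 280.4 and 272 CPM in the shRNA control, a log2 fold change of -0.35 ± 0.06 (SE, adjusted p = 0.00460). EIF5B (ENSG00000158417, chromosome 2, 99337389 to 99401326), the GTPase of subunit joining, had 134 and 129 CPM with shNBD1, against 162 and 157 CPM in the shRNA control, a log2 fold change of -0.28 ± 0.07 (SE, adjusted p = 0.0147). In neither gene did the groups overlap. EIF5 (ENSG00000100664, chromosome 14, 103334237 to 103345025), which makes eIF2 hydrolyse its GTP at the start codon, had 182 and 167 CPM with shNBD1, against 197 and 204 CPM in the shRNA control. Its log2 fold change of -0.20 ± 0.07 (SE, adjusted p = 0.0659) did not pass. EIF1B, a close paralog of EIF1, had 27.7 and 29.8 CPM with shNBD1, against 33.1 and 34.9 CPM in the shRNA control, and did not pass either, at -0.24 ± 0.10 (SE, adjusted p = 0.106). EIF1AX, the X-linked gene of eIF1A, and EIF1AD, an eIF1A-like protein counted with this group here, lay at -0.17 and -0.17 and did not pass.

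In the inhibitor arm 5 of these 6 factors had a positive log2 fold change, and none passed. EIF1 had 189 and 184 CPM with the inhibitors, against 175 and 173 CPM in the inhibitor control, a log2 fold change of 0.10 ± 0.06 (SE, adjusted p = 0.442). EIF5 had 156 and 158 CPM with the inhibitors, against 128 and 133 CPM in the inhibitor control, at 0.26 ± 0.07 (SE, adjusted p = 0.137). EIF5B had 173 and 182 CPM with the inhibitors, against 155 and 158 CPM in the inhibitor control, at 0.18 ± 0.07 (SE, adjusted p = 0.217). In all 3 genes both inhibitor libraries lay above both controls. EIF1B had 28.5 and 32.2 CPM with the inhibitors, against 30.8 and 30.01 CPM in the inhibitor control, and its groups overlapped. Tested directly, the shNBD1 effect minus the inhibitor effect was called for EIF1 (-0.45 ± 0.09, adjusted p = 0.0160), EIF5 (-0.46 ± 0.10, adjusted p = 0.0199) and EIF5B (-0.46 ± 0.09, adjusted p = 0.0161), 3 of the 6 in this group. Across all genes 7.44% were called for that difference (3.48% higher, 3.96% lower), and among tested factors 7 were (1 higher and 6 lower).

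**Figure D2:**
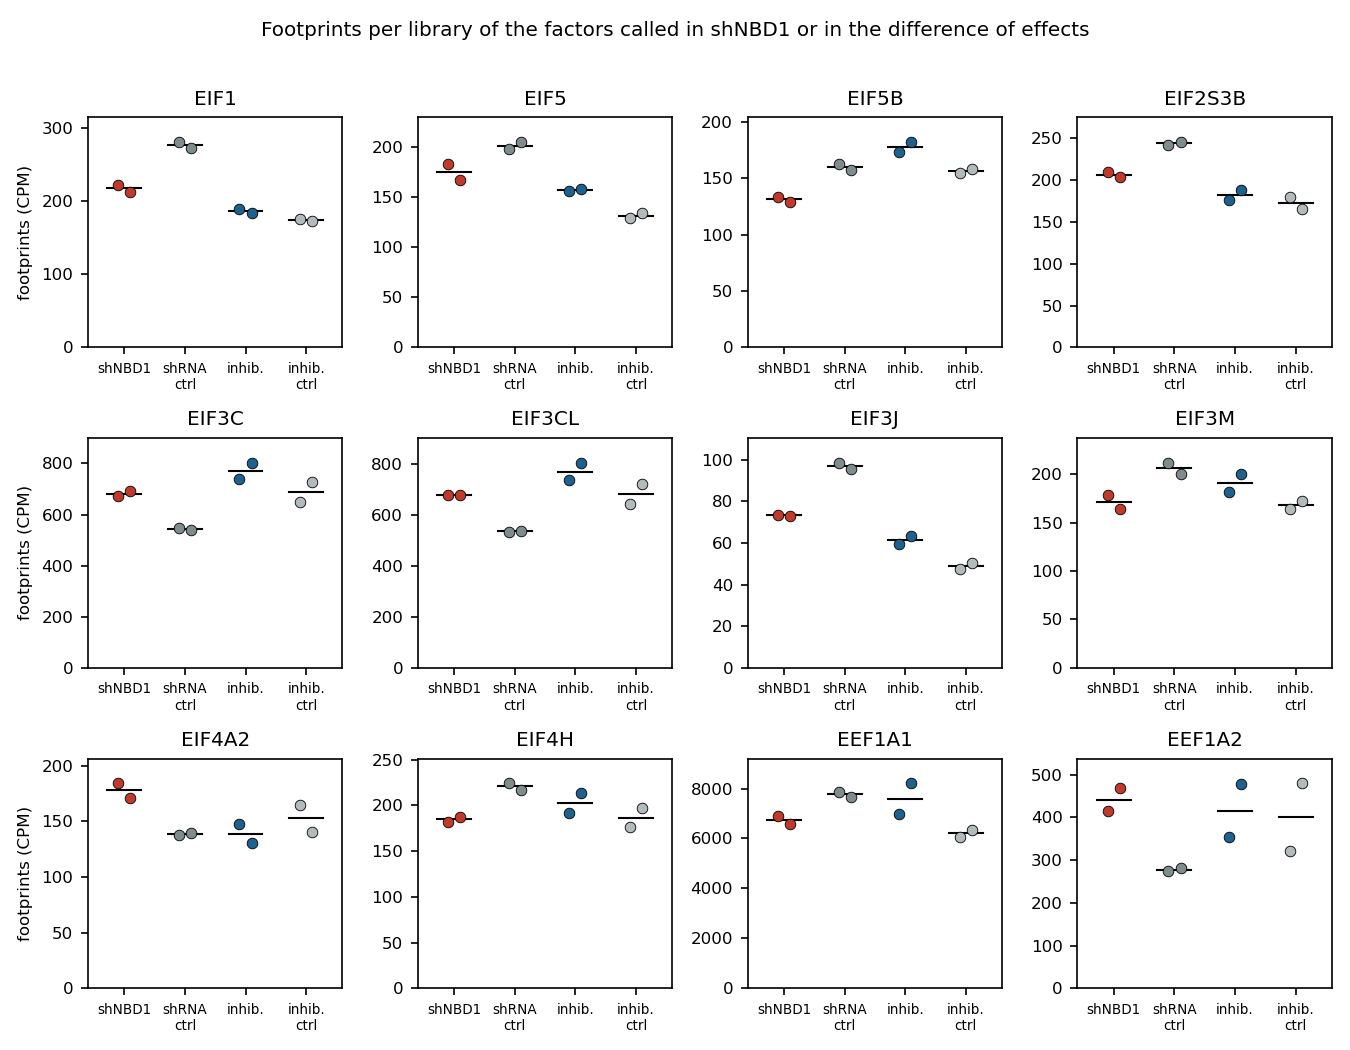
Footprints in CPM (y axis, from 0) in each library, for the 12 factors called under shNBD1 or in the difference of the effects, with groups on the x axis. Each point is a library and each bar is the mean of 2. For EIF1, EIF5, EIF3J, EIF2S3B and EIF4H both shRNA control libraries lie above the 6 others.

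Factors of eIF2 and its recycling gave 1 call among 10 under shNBD1, where 18.3% of all genes tested were called. Of the 10, 9 had a negative log2 fold change with shNBD1, between -0.24 and -0.04, and EIF2S2 (the beta subunit) stood at 0.06. Both shNBD1 libraries lay below both controls for 7 (34.3% of all genes). The median was -0.16. The one call was EIF2S3B (ENSG00000180574, chromosome 12, 10505890 to 10523135), a copy of the gene for the gamma subunit, with 210.0 and 203 CPM with shNBD1, against 243 and 246 CPM in the shRNA control, a log2 fold change of -0.24 ± 0.07 (SE, adjusted p = 0.0366). EIF2S3, the gamma subunit itself, had 425 and 408 CPM with shNBD1, against 469 and 476 CPM in the shRNA control, and did not pass, at -0.18 ± 0.06 (SE, adjusted p = 0.0727). Both genes had lower shNBD1 libraries without overlap. They can share reads, since their sequences are close and the handling of reads that match several genes is not given in the sources used here. With the counts of near-identical copies summed, a setting chosen after seeing the data, the pair was not called, which left this group without a call. EIF2S1, the alpha subunit that stress kinases phosphorylate, had 161 and 151 CPM with shNBD1, against 192 and 171 CPM in the shRNA control, at -0.22 ± 0.08 (SE, adjusted p = 0.0971). EIF2A, a separate protein that can deliver initiator tRNA, had 40.4 and 42.7 CPM with shNBD1, against 46.6 and 46.7 CPM in the shRNA control, at -0.17 ± 0.09 (SE, adjusted p = 0.235). Neither passed, although both genes had all shNBD1 libraries below all controls. The measured eIF2B subunits (EIF2B1, EIF2B2, EIF2B3 and EIF2B4) lay between -0.19 and -0.04, and EIF2D, another tRNA carrier, at -0.11.

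With the inhibitors no gene of this group passed, 7 of 10 had a positive log2 fold change, and the range ran from -0.02 to 0.23. EIF2S1 had 168 and 188 CPM with the inhibitors, against 153 and 163 CPM in the inhibitor control, and EIF2A had 48.5 and 55.8 CPM with the inhibitors, against 42.3 and 46.2 CPM in the inhibitor control. In both, the inhibitor libraries lay above their controls. EIF2S3 had 432 and 426 CPM with the inhibitors, against 435 and 411 CPM in the inhibitor control, and EIF2S3B had 176 and 188 CPM with the inhibitors, against 179.8 and 166 CPM in the inhibitor control, and in both the groups overlapped. The difference of the effects was negative for all 10 and called for none, with the smallest adjusted p at EIF2S1 (-0.39 ± 0.12, adjusted p = 0.0717, edgeR).

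eIF3, the largest initiation factor, is a scaffold of many subunits on the small ribosomal subunit, and its genes had log2 fold changes in both directions. Under shNBD1 8 of its 13 tested genes lay within 0.1 of 0 on the log2 scale, and the standard deviation of the 13 fold changes was 0.20. Of the 13, 2 were called higher and 2 lower, or 30.8% beside 18.3% of all genes. Both higher calls were the near-identical copies EIF3C and EIF3CL, so this share counts 1 measurement more than once. EIF3J (ENSG00000104131, chromosome 15, 44537147 to 44562803), the loosely attached subunit that acts near the mRNA channel and in recycling, had 73.6 and 73.1 CPM with shNBD1, against 98.5 and 95.7 CPM in the shRNA control, a log2 fold change of -0.41 ± 0.07 (SE, adjusted p = 0.00406). EIF3M (ENSG00000149100, chromosome 11, 32583831 to 32606264), a subunit of the octamer core, had 178 and 164 CPM with shNBD1, against 212 and 199.96 CPM in the shRNA control, at -0.27 ± 0.08 (SE, adjusted p = 0.0361). Both were lower in each shNBD1 library than in each control. EIF3C (ENSG00000184110, chromosome 16, 28688558 to 28735730), another core subunit, had 671 and 693 CPM with shNBD1, against 548 and 538 CPM in the shRNA control, at 0.33 ± 0.08 (SE, adjusted p = 0.0138). Its near-identical copy EIF3CL (ENSG00000205609, chromosome 16, 28379581 to 28426418) had 678 and 677 CPM with shNBD1, against 535 and 539.7 CPM in the shRNA control, at 0.33 ± 0.07 (SE, adjusted p = 0.0119). The log2 ratio of these copies lay between -0.03 and 0.02 over the 8 libraries, so they amount to 1 measurement and the direction of either alone is uncertain. EIF3A, the largest subunit, lay at -0.18 and did not pass. EIF3B had 369 and 363 CPM with shNBD1, against 369 and 369 CPM in the shRNA control, and the remaining 7 genes (EIF3D, EIF3E, EIF3G, EIF3H, EIF3I, EIF3K and EIF3L) lay between -0.07 and 0.03.

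In the inhibitor arm 12 of the 13 eIF3 genes had a positive log2 fold change, none passed, and the standard deviation of the fold changes was 0.11. EIF3J had 59.3 and 63.3 CPM with the inhibitors, against 47.6 and 50.3 CPM in the inhibitor control, a log2 fold change of 0.32 ± 0.07 (SE, adjusted p = 0.114), the smallest adjusted p of any factor there. EIF3B had 343 and 424 CPM with the inhibitors, against 293 and 346 CPM in the inhibitor control, at 0.26 ± 0.10 (SE, adjusted p = 0.246). EIF3J was higher in both inhibitor libraries, and EIF3B overlapped. EIF3M had 182 and 200.4 CPM with the inhibitors, against 164 and 172 CPM in the inhibitor control. EIF3C had 740.5 and 803 CPM with the inhibitors, against 647 and 729 CPM in the inhibitor control, and EIF3CL had 737 and 807 CPM with the inhibitors, against 645 and 721 CPM in the inhibitor control. In these 3 the inhibitor libraries lay above their controls. The difference of the effects was called for EIF3J (-0.73 ± 0.10, adjusted p = 0.00303) and EIF3M (-0.45 ± 0.11, adjusted p = 0.0333), and not for EIF3C (0.16 ± 0.11, adjusted p = 0.386, edgeR). The call for EIF3J held in each of 17 alternative settings, with a largest adjusted p of 0.0411.

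**Figure D3:**
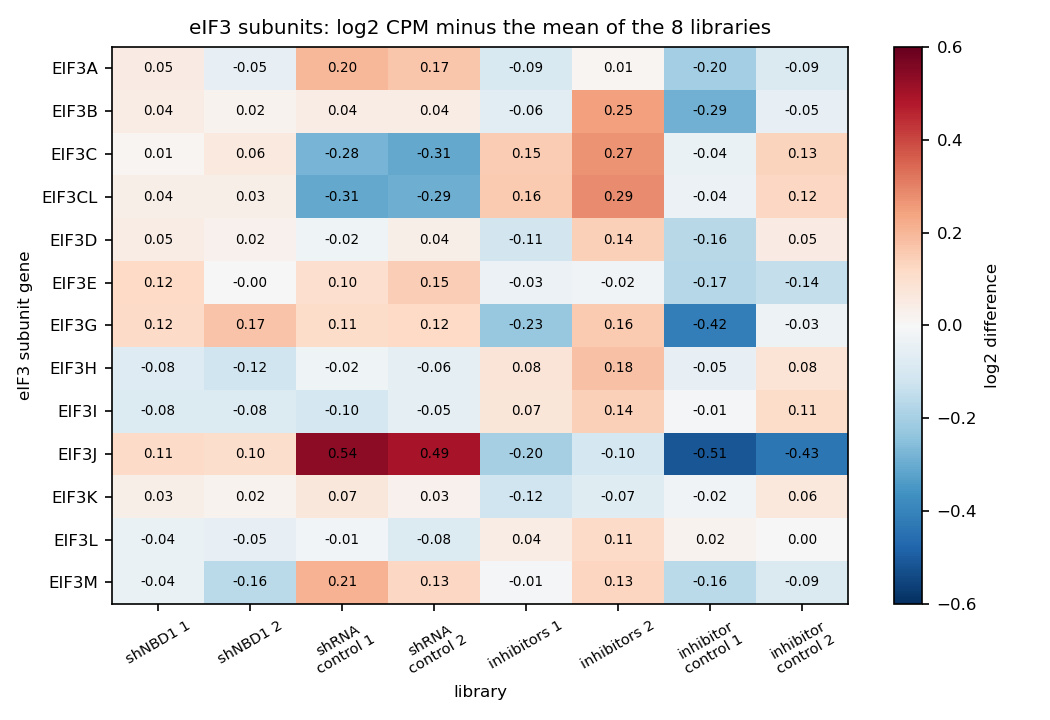
Log2 CPM of each eIF3 gene (rows) in each of the 8 libraries (columns) minus the mean of that gene over the libraries, with colour and printed values on the same scale. EIF3J lies at 0.54 and 0.49 in the shRNA control and at -0.51 and -0.43 in the inhibitor control, while EIF3C and EIF3CL are lowest in the shRNA control.

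Among the 8 tested genes of eIF4F and its helpers, 1 was called higher and 1 lower under shNBD1, or 25% beside 18.3% of all genes. EIF4A2 (ENSG00000156976, chromosome 3, 186783577 to 186789897), the second eIF4A RNA helicase, had 184 and 171 CPM with shNBD1, against 138 and 139.7 CPM in the shRNA control, a log2 fold change of 0.36 ± 0.09 (SE, adjusted p = 0.0225). EIF4A1, the main helicase of eIF4F, had 4157 and 4031 CPM with shNBD1, against 3865 and 3829 CPM in the shRNA control, at 0.09 ± 0.08 (SE, adjusted p = 0.466). EIF4H (ENSG00000106682, chromosome 7, 74174356 to 74197096), which stimulates the helicase, had 182 and 188 CPM with shNBD1, against 224 and 217 CPM in the shRNA control, at -0.26 ± 0.08 (SE, adjusted p = 0.0469). EIF4A2 was higher and EIF4H lower without overlap, while EIF4A1 did not pass. EIF4E, the cap-binding subunit, had 52.2 and 50.4 CPM with shNBD1, against 62.3 and 60.5 CPM in the shRNA control, and did not pass, at -0.26 ± 0.09 (SE, adjusted p = 0.0710). EIF4E3, a divergent cap-binding paralog, had 7.61 and 8.30 CPM with shNBD1, against 7.97 and 9.49 CPM in the shRNA control, with overlapping groups. EIF4G1, the scaffold that links cap and ribosome, had 830.2 and 833 CPM with shNBD1, against 752 and 775 CPM in the shRNA control, at 0.12 ± 0.08 (SE, adjusted p = 0.322). EIF4G2 (DAP5), a scaffold without the cap-binding contact, had 293 and 275 CPM with shNBD1, against 313 and 319 CPM in the shRNA control, at -0.15 ± 0.06 (SE, adjusted p = 0.127). The scaffolds lay on opposite sides and neither passed. EIF4B, the other cofactor of the helicase, lay at -0.07.

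In the inhibitor arm EIF4A2 had 148 and 130.2 CPM with the inhibitors, against 165 and 141 CPM in the inhibitor control, with overlapping groups, and the difference of the effects on it was called (0.49 ± 0.13, adjusted p = 0.0461, edgeR). EIF4A1 had 3669.6 and 4117 CPM with the inhibitors, against 3371 and 3802 CPM in the inhibitor control, and EIF4H had 191 and 214 CPM with the inhibitors, against 176 and 197 CPM in the inhibitor control. Both overlapped. EIF4G1 had 973 and 1068 CPM with the inhibitors, against 804 and 936 CPM in the inhibitor control, at 0.23 ± 0.08 (SE, adjusted p = 0.212), and EIF4G2 had 335 and 345 CPM with the inhibitors, against 313 and 322 CPM in the inhibitor control. For both scaffolds the inhibitor libraries lay above their controls without passing. EIF4E had 53.2 and 47.5 CPM with the inhibitors, against 55.7 and 48.8 CPM in the inhibitor control, with overlap. EIF4E3 had 5.50 and 5.39 CPM with the inhibitors, against 6.49 and 6.38 CPM in the inhibitor control, and lay below without passing.

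The 4E-BPs bind EIF4E and keep it from the scaffold until mTOR phosphorylates them. None of the 3 was called in either treatment. EIF4EBP2 had 11.9 and 14.6 CPM with shNBD1, against 17.6 and 16.8 CPM in the shRNA control, at -0.37 ± 0.12 (SE, adjusted p = 0.0565), and 14.4 and 14.5 CPM with the inhibitors, against 15.03 and 15.2 CPM in the inhibitor control. EIF4EBP1 had 19.8 and 22.5 CPM with shNBD1, against 21.0 and 21.4 CPM in the shRNA control, and 13.2 and 17.3 CPM with the inhibitors, against 14.1 and 17.1 CPM in the inhibitor control. EIF4EBP2 was lower in both shNBD1 libraries and EIF4EBP1 overlapped in both arms. EIF4EBP3 was close to the floor of the data, with 1.14 and 0.75 CPM with shNBD1, against 0.53 and 0.49 CPM in the shRNA control, and 1.81 and 1.23 CPM with the inhibitors, against 1.33 and 1.17 CPM in the inhibitor control. EIF6, which keeps large subunits from joining too early, had 324 and 326 CPM with shNBD1, against 301 and 309 CPM in the shRNA control, at 0.09 ± 0.09 (SE, adjusted p = 0.511), and 225 and 265 CPM with the inhibitors, against 230.0 and 262 CPM in the inhibitor control. It did not pass in either arm.

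Among the 10 tested genes grouped here as elongation factors 1 was called under shNBD1, or 10% beside 18.3% of all genes. EEF1A2 (ENSG00000101210, chromosome 20, 63488014 to 63499083), the form of eEF1A typical of muscle and neurons, had 415 and 468 CPM with shNBD1, against 274 and 281 CPM in the shRNA control, a log2 fold change of 0.67 ± 0.17 (SE, adjusted p = 0.0233). EEF1A1 (ENSG00000156508, chromosome 6, 73515750 to 73521032), the form found in most cells, had 6902 and 6569.8 CPM with shNBD1, against 7874 and 7659 CPM in the shRNA control, at -0.21 ± 0.08 (SE, adjusted p = 0.109). EEF1A2 was higher and EEF1A1 lower in each shNBD1 library than in each control, and EEF1A1 did not pass. EEF1D, an exchange factor for eEF1A, had 157 and 177 CPM with shNBD1, against 166 and 145 CPM in the shRNA control, with overlap. EIF5A, which carries the modified residue hypusine and helps ribosomes through difficult stretches, had 730.2 and 657 CPM with shNBD1, against 709 and 688 CPM in the shRNA control, at -0.01 ± 0.10 (SE, adjusted p = 0.955). Its paralog EIF5A2 had 8.11 and 7.49 CPM with shNBD1, against 8.90 and 8.68 CPM in the shRNA control, at -0.17 ± 0.13 (SE, adjusted p = 0.382). Neither passed. EEF1B2 (exchange factor), EEF2 (translocase), EEF1E1, EEFSEC (selenocysteine delivery) and EIF5AL1 (a copy of EIF5A) lay between -0.18 and 0.22.

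With the inhibitors 9 of these 10 had a positive log2 fold change and none passed. EEF1A1 had 6978 and 8217 CPM with the inhibitors, against 6057 and 6347 CPM in the inhibitor control, at 0.29 ± 0.08 (SE, adjusted p = 0.148). EEF1D had 161 and 207 CPM with the inhibitors, against 119 and 156 CPM in the inhibitor control, at 0.42 ± 0.14 (SE, adjusted p = 0.199). Both lay above their controls, and the distance between replicates was large beside the gap between groups. EEF1A2 had 354 and 477 CPM with the inhibitors, against 320.3 and 479.9 CPM in the inhibitor control, with overlap. EIF5A had 623 and 714 CPM with the inhibitors, against 594 and 715 CPM in the inhibitor control, and EIF5A2 had 10.4 and 10.1 CPM with the inhibitors, against 9.20 and 9.09 CPM in the inhibitor control. Of these EIF5A overlapped and EIF5A2 lay above. The difference of the effects was called for EEF1A1 (-0.50 ± 0.12, adjusted p = 0.0291, edgeR) and not for EEF1A2 (0.62 ± 0.24, adjusted p = 0.149, edgeR).

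Enzymes that modify elongation factors gave no call among 6 tested genes in either arm, although 5 of 6 had a positive log2 fold change in each. EEF2KMT, a methyltransferase of eEF2, had 18.7 and 20.9 CPM with shNBD1, against 15.3 and 14.8 CPM in the shRNA control, at 0.40 ± 0.14 (SE, adjusted p = 0.0688), and 15.8 and 20.1 CPM with the inhibitors, against 18.2 and 16.2 CPM in the inhibitor control. EEF1AKMT2, a lysine methyltransferase of eEF1A, had 9.46 and 9.93 CPM with shNBD1, against 8.63 and 6.88 CPM in the shRNA control, and 5.81 and 6.71 CPM with the inhibitors, against 5.52 and 6.64 CPM in the inhibitor control. EEF1AKNMT, which methylates the N terminus of eEF1A, had 56.1 and 59.8 CPM with shNBD1, against 52.9 and 55.1 CPM in the shRNA control, and 53.8 and 63.4 CPM with the inhibitors, against 51.7 and 58.5 CPM in the inhibitor control. All 3 were higher in both shNBD1 libraries and overlapped in the inhibitor arm. EEF1AKMT3 had 2.70 and 2.11 CPM with shNBD1, against 1.46 and 2.37 CPM in the shRNA control, and 2.06 and 3.21 CPM with the inhibitors, against 2.15 and 1.89 CPM in the inhibitor control, values near the floor. EEF1AKMT1 and EEF2K, the kinase that inactivates eEF2, lay at -0.29 and 0.07 under shNBD1. Of the readthrough symbols, EEF1E1-BLOC1S5 had 27.9 and 26.7 CPM with shNBD1, against 29.5 and 28.4 CPM in the shRNA control, and 30.5 and 32.1 CPM with the inhibitors, against 30.1 and 29.9 CPM in the inhibitor control. EEF1AKMT4-ECE2 had 6.54 and 7.42 CPM with shNBD1, against 6.84 and 5.07 CPM in the shRNA control, and 8.69 and 11.3 CPM with the inhibitors, against 5.27 and 8.37 CPM in the inhibitor control, at 0.54 ± 0.23 (SE, adjusted p = 0.282). Neither passed, and the first shares sequence with EEF1E1.

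Of the 10 shNBD1 calls, 8 needed all 4 libraries of the arm in the fit that estimates the spread over all 4 groups. Without shNBD1 replicate 1 the counts were 0 higher and 2 lower, without shNBD1 replicate 2 they were 0 and 0, without shRNA control replicate 1 they were 0 and 0, and without shRNA control replicate 2 they were 0 and 2, while the share of all genes called fell to between 3.92% and 7.52%. The 2 that held without some libraries were EIF3J (adjusted p 0.0398 to 0.0703) and EIF1 (adjusted p 0.0328 to 0.0839), whose calls were lost without shRNA control replicate 1 and without shNBD1 replicate 2. The other 8 were lost without each library in turn, with unchanged signs. A fit of only the 4 libraries of this arm called 9 higher and 19 lower, where 41.9% of all genes were called. The reason for these changes was not tested. DESeq2 called 3 higher and 3 lower, where 12.5% of all genes were called. The calls of EEF1A2, EIF2S3B, EIF3M and EIF4H ended there. That of EIF4H also ended when the test was limited to genes averaging 50 or more counts. For 6 of the 10 called factors (EIF1, EIF2S3B, EIF3C, EIF3CL, EIF3J and EIF3M) the mean with shNBD1 lay between the means of the shRNA control and the inhibitor control. Those for EIF5B, EIF4A2, EIF4H and EEF1A2 lay outside both. This split rests on means alone, since the shNBD1 libraries of EIF4H and EEF1A2 lay between the inhibitor control libraries. The share of all called genes with a mean between those of the controls was not computed.

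The ratio of a pair of paralogs within a library does not depend on how libraries are scaled. The log2 ratio of EEF1A2 to EEF1A1 counts was -4.05 and -3.81 with shNBD1, against -4.85 and -4.77 in the shRNA control, a mean difference of 0.87. It was -4.30 and -4.11 with the inhibitors, against -4.24 and -3.73 in the inhibitor control. The ratio was higher in both shNBD1 libraries than in both controls, and the inhibitor groups overlapped. The log2 ratio of EIF4A2 to EIF4A1 was -4.49 and -4.56 with shNBD1, against -4.81 and -4.78 in the shRNA control. In the other arm it was -4.63 and -4.98 with the inhibitors, against -4.35 and -4.76 in the inhibitor control. The helicase ratio was higher with shNBD1 and overlapped in the inhibitor arm.

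Lower ratios with shNBD1 were found for EIF4EBP2 to EIF4EBP1, at -0.74 and -0.62, against -0.26 and -0.35 in the shRNA control, and for EIF4G2 to EIF4G1, at -1.50 and -1.60, against -1.26 and -1.28 in the shRNA control. For EIF4G2 to EIF4G1 the inhibitor libraries gave -1.54 and -1.63, against -1.36 and -1.54 in the inhibitor control. EIF5A2 to EIF5A differed by -0.16 and EIF2S3B to EIF2S3 by -0.06 in the shNBD1 arm, in both cases without overlap of the groups. EIF1B to EIF1 and EIF4E3 to EIF4E differed by 0.10 and 0.13 with overlapping groups, and EIF3CL to EIF3C lay between -0.03 and 0.02 in every library. With 2 libraries against 2 an exact two-sided permutation test cannot go below p = 0.333, so these ratios are given without a test.

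**Figure D4:**
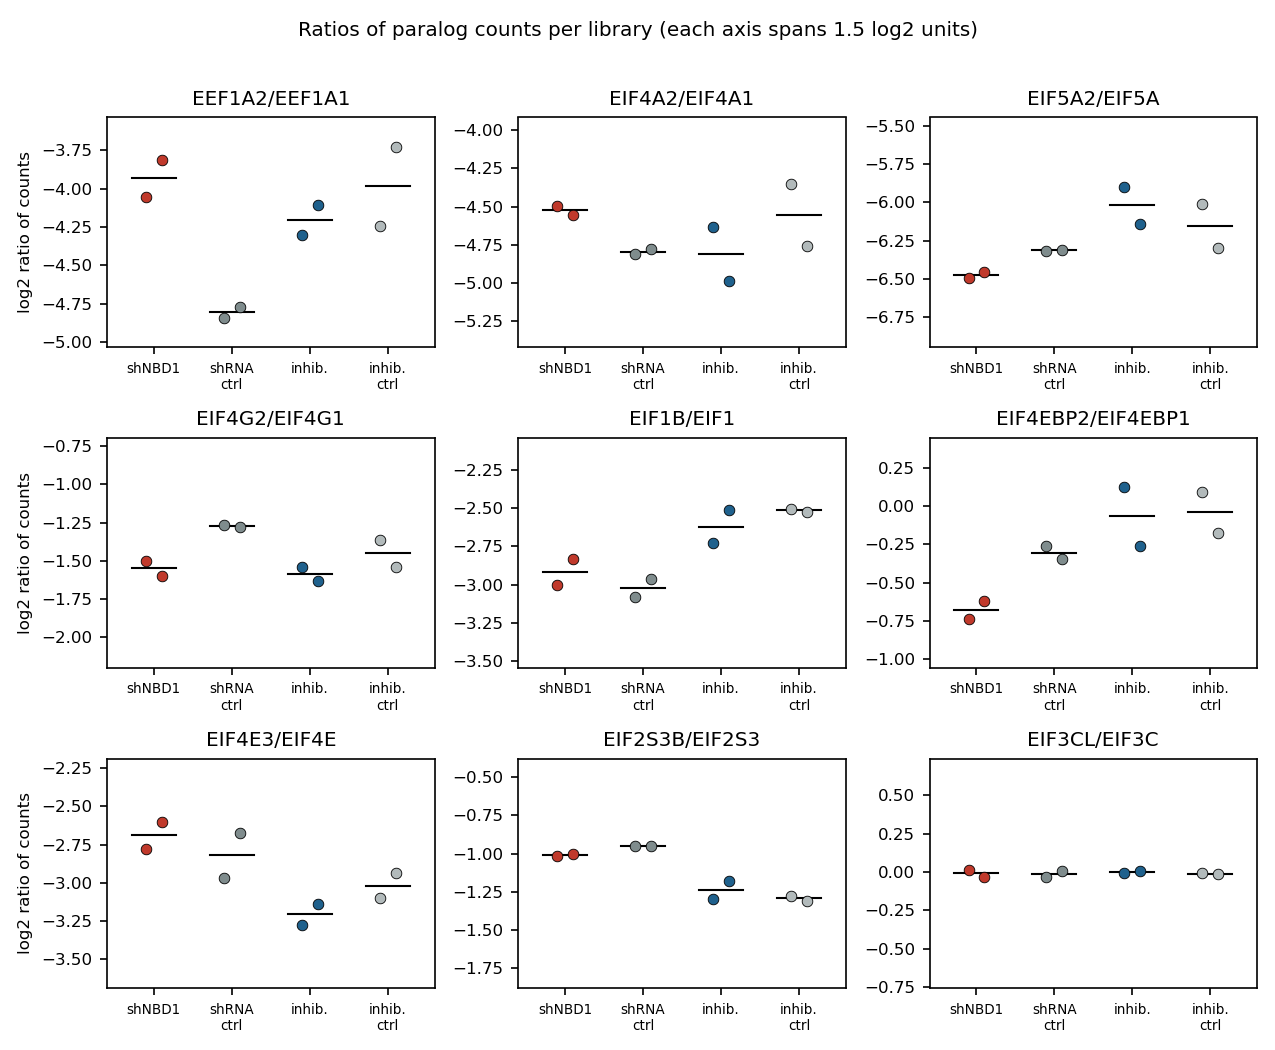
Log2 ratio of the counts of each paralog pair (y axis, each spanning 1.5 log2 units) in each library, by group on the x axis, with bars at the mean of 2 libraries. The EEF1A2 to EEF1A1 ratio is -4.05 and -3.81 with shNBD1, above -4.85 and -4.77 in the shRNA control.

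Factors known for TOP mRNAs gave no call in either treatment, where 18.3% of all genes were called with shNBD1 and 0.12% with the inhibitors. With only 9 factors a count of 0 does not set them apart from all genes. In the difference of the effects 1 was called (EEF1A1), or 11.1% beside 7.44% of all genes. Between the controls 2 were called, or 22.2% beside 27.1%. The 9 measured (EEF1A1, EEF1B2, EEF1D, EEF2, EIF3E, EIF3H, EIF3L, EIF4B and EIF2S3) had a median log2 fold change of -0.06 with shNBD1, where 5 were negative, beside -0.10 for the 50 other tested factors. With the inhibitors all 9 were positive, with a median of 0.11, beside 0.08 for the 50 others. Of the 12 factors with a pyrimidine-rich annotated start, shown above for 6, 1 was higher (EIF4A2) and 2 were lower (EIF3M and EIF2S3B) with shNBD1. Among the 33 tested factors with another start, 1 was higher and 4 were lower. The median log2 fold changes were -0.09 with the pyrimidine-rich start and -0.15 with another.

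In the inhibitor arm the positive lean of the factors changed with the library left out. The median log2 fold change of the tested factors was 0.13 without inhibitors replicate 1 and 0.02 without inhibitors replicate 2. It was 0.04 without inhibitor control replicate 1 and 0.15 without inhibitor control replicate 2. The number called moved as well, over all genes as among the factors. Inhibitors replicate 2 also had the highest summed level of the factors and inhibitor control replicate 1 the lowest. With both of these left out, a setting chosen after seeing the data, the median was 0.02. That setting keeps 1 library in each group of the arm, which is then assumed to vary like the other groups. In the shNBD1 arm the median stayed negative, between -0.12 without shNBD1 replicate 1 and -0.03 without shNBD1 replicate 2.

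**Figure D5:**
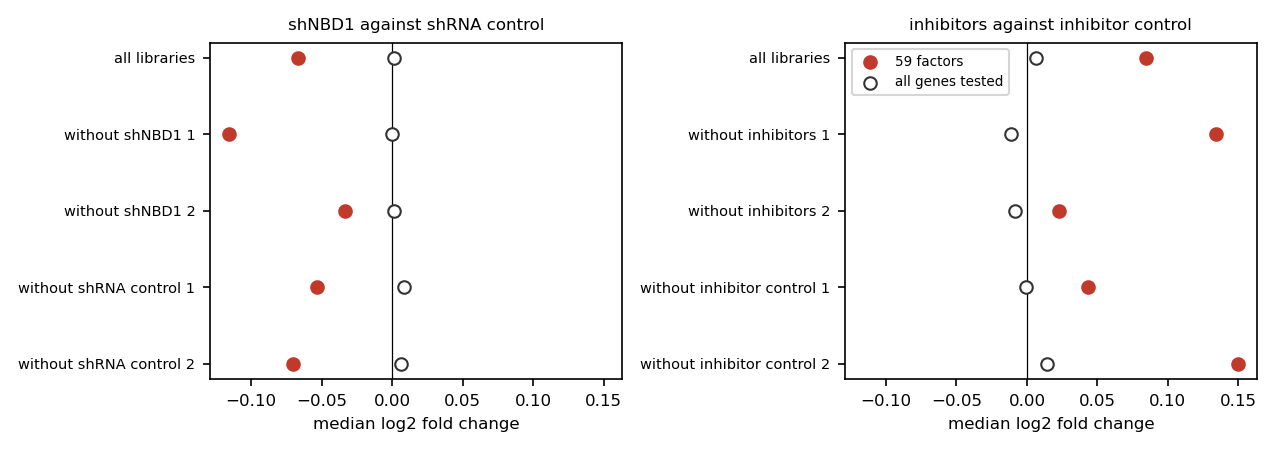
Median log2 fold change (x axis) of 59 tested factors (filled points) and of all genes tested (open points), with all libraries and without each library in turn, for shNBD1 (left) and the inhibitors (right). The inhibitor median ranges from 0.02 to 0.15, and the medians of all genes lie near 0.

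More factors were called between the controls than in either treatment. Between the shRNA control and the inhibitor control 13 of 59 tested factors were higher and 6 lower, beside 27.1% of all genes called (13.5% higher and 13.6% lower). The 6 of smallest p, chosen after their values were seen, were EIF3J, EIF1, EIF5, EIF1AX, EIF2S3B and EIF3CL. EIF3J had 98.5 and 95.7 CPM in the shRNA control, against 47.6 and 50.3 CPM in the inhibitor control, a log2 fold change of 0.99 ± 0.07 (SE, adjusted p = 2.52e-05). EIF1 had 280.4 and 272 CPM in the shRNA control, against 175 and 173 CPM in the inhibitor control, at 0.67 ± 0.06 (SE, adjusted p = 0.000107). EIF5 had 197 and 204 CPM in the shRNA control, against 128 and 133 CPM in the inhibitor control, at 0.62 ± 0.07 (SE, adjusted p = 0.000235). In these 3 genes the shRNA control was the highest of the 4 groups. EIF1AX had 298 and 289 CPM in the shRNA control, against 421 and 413 CPM in the inhibitor control, at -0.51 ± 0.06 (SE, adjusted p = 0.000418), and lay lower in the shRNA control. EIF2S3B differed by 0.50 and EIF3CL by -0.35. The control RNAs and the way each arm was handled cannot be told apart. Without single control libraries the counts ran from 4 to 17 higher and from 1 to 5 lower, with 4 and 1 without shRNA control replicate 1, and the same without shRNA control replicate 2. They were 9 and 5 without inhibitor control replicate 1, and 17 and 4 without inhibitor control replicate 2. The share of all genes called fell as well, from 27.1% with all libraries. It was 7.94% without shRNA control replicate 1 and 9.33% without shRNA control replicate 2. Without inhibitor control replicate 1 it was 23.6%, and without inhibitor control replicate 2 it was 22.7%.

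Other genes of the translation pathway were called in both directions under shNBD1 and in neither under the inhibitors. Of 41 listed genes, 38 were measured, and ABCF2, DOHH and ZNF598 were not analysed here. With shNBD1 1 was higher and 5 were lower, or 15.8% beside 18.3% of all genes tested, with a median of -0.04. DHPS, which makes the hypusine of eIF5A, had 86.4 and 92.6 CPM with shNBD1, against 69.6 and 72.9 CPM in the shRNA control, a log2 fold change of 0.33 ± 0.07 (SE, adjusted p = 0.0105). DENR, which with MCTS1 recycles small subunits and drives reinitiation, had 42.5 and 41.3 CPM with shNBD1, against 61.6 and 55.3 CPM in the shRNA control, at -0.48 ± 0.08 (SE, adjusted p = 0.00290). DPH3, of the pathway that modifies eEF2 to diphthamide, had 34.3 and 33.2 CPM with shNBD1, against 45.4 and 42.4 CPM in the shRNA control, at -0.38 ± 0.09 (SE, adjusted p = 0.0141). DHX29, a helicase for structured leaders, had 73.0 and 67.2 CPM with shNBD1, against 85.1 and 90.9 CPM in the shRNA control, at -0.33 ± 0.08 (SE, adjusted p = 0.0174). DHPS lay above and the other 3 below without overlap. PAIP1, a partner of poly(A)-binding protein, was lower as well, at -0.32. With the inhibitors none of the 38 was called, the median was 0.11, and the smallest p belonged to LARP1, the TOP mRNA repressor, with 162 and 160.4 CPM with the inhibitors, against 199 and 197 CPM in the inhibitor control, at -0.29 ± 0.06 (SE, adjusted p = 0.0998). Next came ABCE1, the ribosome-splitting ATPase, with 158 and 171 CPM with the inhibitors, against 131 and 138 CPM in the inhibitor control, at 0.29 ± 0.07 (SE, adjusted p = 0.121). LARP1 lay below and ABCE1 above their controls without passing. The difference of the effects was called for 5 of the 38, or 13.2% beside 7.44% of all genes. It was 0.37 ± 0.09 for LARP1 (adjusted p = 0.0304, edgeR) and -0.41 ± 0.10 for ABCE1 (adjusted p = 0.0314, edgeR). It was also called for DENR at -0.65, DPH3 at -0.48 and the helicase gene DDX3X at -0.47, and the controls differed from each other for ABCE1, DPH3 and DDX3X.

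Factors of mitochondrial translation, which work on a separate ribosome, gave 1 call among 10 genes with shNBD1, or 10% beside 18.3% of all genes. MTIF3, the mitochondrial initiation factor IF3, had 14.2 and 12.7 CPM with shNBD1, against 16.7 and 18.3 CPM in the shRNA control, a log2 fold change of -0.38 ± 0.11 (SE, adjusted p = 0.0424). The median of the 10 was -0.10 with shNBD1 and 0.02 with the inhibitors, where none passed. The smallest p values there were those of GFM1, a mitochondrial elongation factor G, at 0.25 ± 0.08 (SE, adjusted p = 0.176), and TUFM, mitochondrial EF-Tu, at 0.26 ± 0.09 (SE, adjusted p = 0.195).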

How the data were processed

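Ribosome footprints of 293T cells were sequenced in 8 libraries. The values deposited by the authors are raw counts of mapped reads per gene and transcript, not normalized. Bowtie, cutadapt and the GRCh38 build are named per the submitters' processing notes. Neither their versions nor the counting tool are given in the sources used here, and the same holds for how reads matching several genes were treated. Counts were summed per gene symbol, and features not listed in a library were taken as 0.

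Groups were compared in edgeR 4.0.16 with limma 3.58.1 (R 4.3.3): filterByExpr (minimum count 10, minimum total 15), TMM scaling, and a quasi-likelihood model of 4 groups over 8 libraries with 4 residual degrees of freedom. Benjamini-Hochberg adjustment covered the 13306 genes tested, and an adjusted p under 0.05 was called. Errors of fold changes are SE from the test. The common biological coefficient of variation was 0.0753. Library totals lay between 11218980 and 19854218 counts, and errors do not cover amplification of reads. DESeq2 1.42.0 was run as an alternative, as were other scaling, filters, libraries left out and a replicate block.

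Named with values in each library were factors called in a treatment or in the difference of the effects, the 2 of smallest p in each group of factors, and paralog pairs. From the further lists, up to 4 called genes of largest change or 2 of smallest p were named. PAIP1 and DDX3X were named after their values were seen, and 1 called gene of these lists is not reported here. The members and lists were chosen with earlier results of these data known. Starts came from RefSeq tables of GRCh38.p14, as did coordinates.

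The steps were tested on simulated counts before use, with 50 genes changed at each size. Of changes of 1.25 fold, 10% were recovered for shNBD1 and 14% for the inhibitors. Of changes of 2 fold, 94% and 98% were recovered. Among the 147 and 142 calls, 14 and 9 were of unchanged genes. Far fewer genes were changed in the simulation than the 2440 called for shNBD1. Each simulated gene had the same spread in all libraries, while real replicates lay further apart in the inhibitor arm. The shares recovered may therefore differ in the real data.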

Additional observations from a re-analysis of the deposited data

Results flagged for a closer look

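The effects of shNBD1 and of the inhibitors, each against its own control, differed by the edgeR quasi-likelihood test of the difference itself for 7 factors. That is 11.9% of the tested factors, beside 7.44% of all genes tested. The shNBD1 effect minus the inhibitor effect was -0.73 on the log2 scale for EIF3J (adjusted p = 0.00303), -0.50 for EEF1A1 (adjusted p = 0.0291) and -0.46 for EIF5 (adjusted p = 0.0199). For EIF5B the difference was -0.46 (adjusted p = 0.0161), for EIF3M -0.45 (adjusted p = 0.0333) and for EIF1 -0.45 (adjusted p = 0.0160). EIF4A2 was the one with a higher shNBD1 effect, at 0.49 (adjusted p = 0.0461). In all 6 with a lower shNBD1 effect both shNBD1 libraries lay below their controls and both inhibitor libraries above theirs. These 6 were picked by the same values, so this pattern adds no support. Its share over all genes was not computed. Without single libraries the adjusted p ran over 0.00230 to 0.0411 for EIF3J, 0.0209 to 0.133 for EIF5, 0.0153 to 0.133 for EIF1, 0.0135 to 0.130 for EIF5B, 0.00226 to 0.162 for EEF1A1, 0.0171 to 0.198 for EIF3M and 0.0131 to 0.194 for EIF4A2. Without shNBD1 replicate 2, shRNA control replicate 1 or shRNA control replicate 2 only EIF3J was called among the factors. The controls also differed from each other for EIF3J, EIF1, EIF5, EIF3M and EEF1A1, and the part of this in the differences was not tested.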

How the results depend on the processing

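The counts of called factors depended on the libraries and on how the spread was estimated. Leaving out each library in turn gave 0 to 0 higher and 0 to 2 lower for shNBD1, 0 to 5 higher and 0 lower for the inhibitors, 0 to 1 higher and 1 to 9 lower for the difference of the effects, and 4 to 17 higher and 1 to 5 lower between the controls. A fit of only the 4 libraries of the comparison called 9 higher and 19 lower for shNBD1, where it called 5314 genes in place of 2440, and 0 for the inhibitors. DESeq2 called 3 higher and 3 lower for shNBD1, where 1665 genes were called in place of 2440. Between the controls it called 9 higher and 3 lower, with 2389 genes called there in place of 3611. With the inhibitors it called 99 genes in place of 16. Without the filter on low counts 1 factor was higher with the inhibitors, and 179 genes were called in place of 16. The labels do not say what a replicate number marks. Over the genes tested, the log2 differences between replicates 1 and 2 were compared between groups. The correlation of these differences between treatment and control was 0.48 in the inhibitor arm and 0.02 in the shRNA arm. Across the arms it was 0.19 for shNBD1 with the inhibitor control and 0.17 for shNBD1 with the inhibitors. For the shRNA control it was 0.005 with the inhibitor control and 0.02 with the inhibitors. With the replicate block 5 were higher and 10 lower for shNBD1, where 3408 genes were called in place of 2440. With the inhibitors 4 were higher (EEF1A1, EEF1D, EIF3J and EIF5), where 675 genes were called in place of 16. The difference gave 2 higher and 10 lower, where 1868 genes were called in place of 990. An alternative chosen after seeing the data left out both inhibitor control 1 and inhibitors 2. It called 3 factors lower with the inhibitors and turned EEF1A2 to -0.44, called 11 higher and 14 lower for the difference with a median of -0.032, and 10 lower between the controls, with 501, 3738 and 5673 genes called in place of 16, 990 and 3611. Over single libraries left out, 532 to 1022 genes were called for shNBD1, 4 to 930 for the inhibitors, 187 to 1135 for the difference and 1077 to 3197 between the controls. Summing near-identical copies, also chosen after seeing the data, RLE size factors, the feature with most counts, leaving out ZNF354B and ST8SIA1, and a mean of at least 50 counts kept each count of called factors within 1.5 times. The causes of these changes were not tested. Footprints per codon were not run, since no table of protein lengths was used here. With 2 libraries a group, a factor that did not pass may still differ.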

Other observations

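PPP1R15A, the stress-induced subunit that directs a phosphatase to eIF2, was chosen after its values were seen. It had 39.7 and 93.9 CPM with the inhibitors, against 19.1 and 35.1 CPM in the inhibitor control, a log2 fold change of 1.28 ± 0.34 (SE, adjusted p = 0.138) by edgeR. In the other arm it had 56.9 and 50.2 CPM with shNBD1, against 40.4 and 42.6 CPM in the shRNA control, at 0.37 ± 0.34 (SE, adjusted p = 0.484). Both inhibitor libraries lay above both controls, with the inhibitor replicates more than 2 times apart, and it passed in neither arm.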
